A study of Mus musculus with 17 samples.

Results

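Kcnj6, Kcnj3, Kcnj9 and Kcnj5 encode the subunits of the G protein-gated inwardly rectifying potassium (GIRK) channels. They were chosen by gene name, are the 4 members of this family among the 55385 genes of the tables, and all passed the filter on low counts. Kcnj6 lies in the segment of chromosome 16 that is present in 3 copies in Dp16 mice, as 1 of its 384 genes in the tables, while the 3 partner genes lie on other chromosomes. The question was how the transcripts of a channel family stand when 1 subunit gene has an extra copy and its partners do not, with and without the extra copy of the interferon receptor genes.

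Polyadenylated RNA was sequenced from the hippocampus of 17 mice, 1 library per mouse. The WT group (wild-type C57BL/6J) had 3 females and 3 males aged 17.1 to 18.0 weeks. The Dp16 group, a mouse model of Down syndrome with the segmental duplication, had 3 females and 3 males of the same age range. The Dp16_2xIFNRs group carried the duplication with the interferon receptor dosage set back to normal and had 3 females and 2 males aged 17.7 to 18.0 weeks. How the dosage was set back, and the strain background of the duplication mice, are not given in the sources used here. No treatment is given for any group, and the duplication spans many genes besides Kcnj6 in both duplication groups.

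GIRK channels are assembled from 4 subunits around a potassium-selective pore. Neurotransmitter receptors that couple to inhibitory G proteins, such as the GABA-B and adenosine A1 receptors, release G protein beta-gamma subunits that open the channel, and the resulting potassium current lowers the excitability of the neuron. Kcnj6 encodes GIRK2, which can form channels on its own and carries other subunits to the cell surface. Kcnj3 encodes GIRK1, which needs a partner to reach the surface, Kcnj9 encodes GIRK3, which is linked to sorting inside the cell, and Kcnj5 encodes GIRK4, best known from the atria of the heart. In the hippocampus GIRK1, GIRK2 and GIRK3 are the subunits known from pyramidal neurons.

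The members share the signature of the pore, and the coding sequence around it is printed to show how alike the 4 genes are where they are most alike in function. Each stretch is 99 bases, 5′ to 3′ on the coding strand, from the longest coding sequence of the gene in the GENCODE annotation of GRCm38. The capitals mark the 9 bases that encode glycine, tyrosine and glycine of the selectivity filter.
Kcnj6: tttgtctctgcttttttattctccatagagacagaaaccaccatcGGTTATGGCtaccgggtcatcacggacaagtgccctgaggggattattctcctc
Kcnj3: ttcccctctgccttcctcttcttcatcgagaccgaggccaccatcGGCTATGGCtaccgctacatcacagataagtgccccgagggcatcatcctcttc
Kcnj9: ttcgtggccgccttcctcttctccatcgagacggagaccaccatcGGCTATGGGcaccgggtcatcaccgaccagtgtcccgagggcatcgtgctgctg
Kcnj5: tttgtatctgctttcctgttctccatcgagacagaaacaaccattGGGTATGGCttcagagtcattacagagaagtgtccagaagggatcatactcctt

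Each stretch lies within 1 coding exon, at chr16:94832732-94832830 on the minus strand for Kcnj6, chr2:55437588-55437686 on the plus strand for Kcnj3, chr1:172326139-172326237 on the minus strand for Kcnj9 and chr9:32322514-32322612 on the minus strand for Kcnj5 (GRCm38). Between pairs of members these stretches were 72.7% to 79.8% identical. Over the whole coding sequences, which are 1275 bases in Kcnj6, 1503 in Kcnj3, 1179 in Kcnj9 and 1257 in Kcnj5, identity was 65.4% to 70.1%. The longest run of bases shared exactly by transcripts of 2 members was 22 bases, between Kcnj6 and Kcnj5, and for the other pairs it was 14 to 18 bases. The reads were 150 bases long, so no read of that length matched the annotated transcripts of 2 members along its whole length.

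The whole genes lie at chr16:94748636-94997701 (Kcnj6, ENSMUSG00000043301.16), chr2:55435970-55598145 (Kcnj3, ENSMUSG00000026824.11), chr1:172320501-172329318 (Kcnj9, ENSMUSG00000038026.12) and chr9:32314707-32344350 (Kcnj5, ENSMUSG00000032034.6). The strand setting of the authors' counting is not given in the sources used here, and without strand the reads of a gene and of an overlapping antisense gene cannot be told apart. An antisense gene, Gm41505, overlaps exons of Kcnj6, and it had 32 to 53 counts per WT library where Kcnj6 had 844 to 1109. Gm41505 also lies in the segment, had 50 to 82 counts per Dp16 library and 55 to 106 per Dp16_2xIFNRs library, and its log2 fold changes against WT were 0.61 ± 0.20 (SE; edgeR adjusted p = 0.291) and 0.89 ± 0.21 (edgeR adjusted p = 0.0456). How many of these reads were shared with Kcnj6 was not tested. Another, Gm36937, overlaps an exon of Kcnj9 and stood at 2.71 ± 0.545 CPM (counts per M counts of the scaled library; SD, n = 6) in WT, where Kcnj9 stood at 132 ± 7.72 CPM. The 5′ part of Kcnj3 overlaps Gm26794, which was not analysed here.

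Libraries held 30.4 to 33.1 M counts, and the spread between mice, a common biological coefficient of variation of 14.1%, set the precision for most genes. The summed level of 12 pyramidal neuron markers was 1278 to 1644 CPM in WT, 1550 to 1931 CPM in Dp16 and 1513 to 1749 CPM in Dp16_2xIFNRs, and 8 dentate granule cell markers and 10 interneuron markers were present in every library as well. In 3 libraries (WT replicate 6, Dp16 replicate 6 and Dp16_2xIFNRs replicate 5) 12 choroid plexus markers summed to 65.2, 73.1 and 110.3 CPM, where the group medians were 4545, 3331 and 3766 CPM. In WT replicate 4, 12 markers of the thalamus and habenula summed to 634 CPM, where the WT median was 228 CPM. In tissue RNA, a lower level can come from fewer cells of a type or from less RNA per cell, and these cannot be told apart.

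Per length, as reads per kilobase and megaread (RPKM), Kcnj3 and Kcnj9 were the abundant subunits, Kcnj6 stood well below them, and Kcnj5 was close to the detection limit. In WT, Kcnj9 stood at 33.9 ± 1.70 RPKM (SD, n = 6) and Kcnj3 at 33.0 ± 3.57 RPKM, with ranges that overlapped, so these neighbours did not differ beyond their spread. Kcnj6 stood at 4.59 ± 0.614 RPKM and Kcnj5 at 0.115 ± 0.0428 RPKM in WT, and neither range touched that of another member. In Dp16 and in Dp16_2xIFNRs the order was again Kcnj3 and Kcnj9 together, then Kcnj6, then Kcnj5. The plot of RPKM by mouse shows that the distance between Kcnj6 and the 2 abundant subunits was smaller in the duplication groups.

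**Figure D1:**
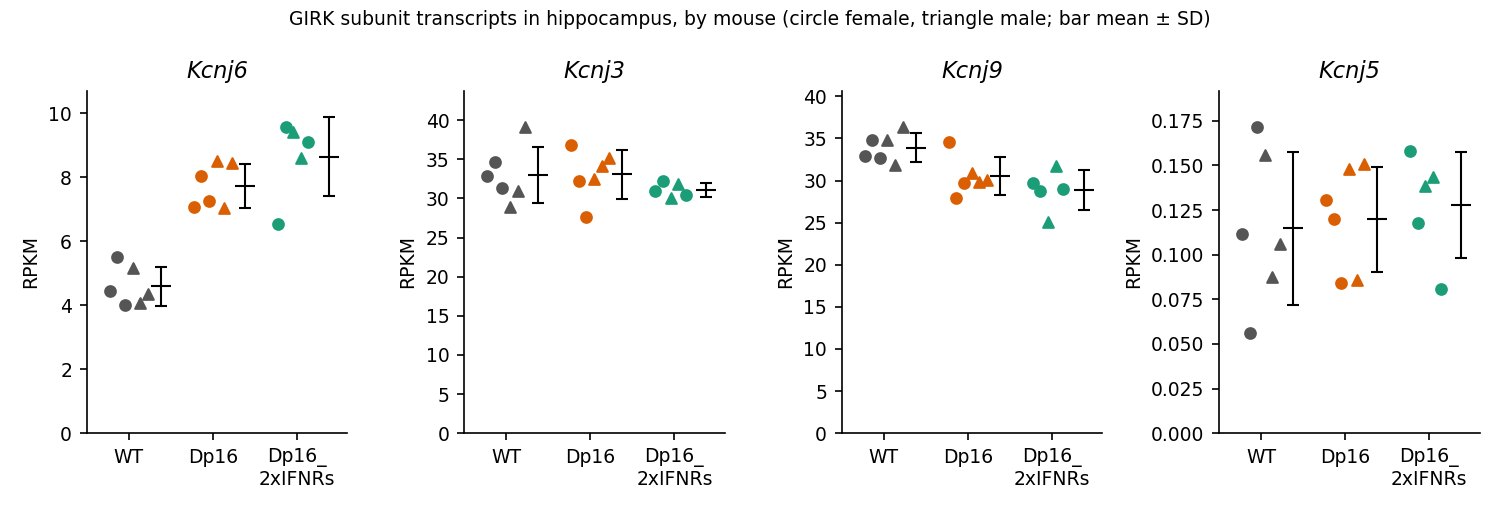
RPKM (y axis, from 0, a separate scale per panel) of Kcnj6, Kcnj3, Kcnj9 and Kcnj5 in each mouse of the 3 genotypes; circles are females, triangles males, and the bar beside each group is the mean with its SD. All Kcnj6 values of the duplication mice, from 6.55 RPKM, lie above the highest WT value of 5.52 RPKM, while the groups overlap for Kcnj3 and Kcnj5.

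Kcnj6 was higher in both duplication groups. In WT its lowest value was 4.01 RPKM, its median 4.39 RPKM and its highest 5.52 RPKM. In Dp16 the lowest was 7.03 RPKM, the median 7.64 RPKM and the highest 8.52 RPKM. The Dp16_2xIFNRs mice had 6.55, 9.56, 9.40, 8.60 and 9.09 RPKM, in the order of their replicate numbers. Neither duplication group overlapped WT, and the 2 duplication groups overlapped each other.

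On the scale of CPM, Kcnj6 rose from 29.9 ± 3.65 (SD, n = 6) in WT to 51.1 ± 5.28 (n = 6) in Dp16 and 56.0 ± 7.53 (n = 5) in Dp16_2xIFNRs. The log2 fold change was 0.77 ± 0.09 (SE; 95% interval 0.57 to 0.97, 1.71-fold) in Dp16 against WT (edgeR adjusted p = 7.63e-05). It was 0.91 ± 0.10 (0.70 to 1.11, 1.88-fold) in Dp16_2xIFNRs against WT (edgeR adjusted p = 2.03e-05). Between the 2 duplication groups the difference was 0.14 ± 0.10 with an interval of -0.07 to 0.34, and it did not pass (edgeR adjusted p = 0.603). The call against WT held in each of 36 alternatives, with log2 fold changes of 0.65 to 0.84 for Dp16 and 0.73 to 0.98 for Dp16_2xIFNRs.

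Kcnj3 did not pass in any comparison. Its lowest, median and highest values were 29.0, 32.1 and 39.1 RPKM in WT and 27.7, 33.3 and 36.9 RPKM in Dp16, and the Dp16_2xIFNRs mice had 31.0, 32.2, 30.0, 31.8 and 30.4 RPKM. The 3 groups overlapped, and the values of Dp16_2xIFNRs lay closest together, within the ranges of the other 2 groups. The log2 fold changes were 0.02 (95% interval -0.14 to 0.18; edgeR adjusted p = 0.955) in Dp16 and -0.09 (-0.27 to 0.08; edgeR adjusted p = 0.585) in Dp16_2xIFNRs, each against WT. Both intervals leave out a 1.5-fold rise, and they hold no change as well as smaller shifts in either direction. The sign in Dp16 turned in some alternatives, which gave -0.029 to 0.088.

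Kcnj9 had lower means in the duplication groups, by amounts that did not pass. Its lowest, median and highest values were 31.8, 33.8 and 36.3 RPKM in WT and 27.9, 29.9 and 34.6 RPKM in Dp16. The Dp16_2xIFNRs mice had 29.7, 28.8, 25.1, 31.7 and 28.9 RPKM. All 5 values of Dp16_2xIFNRs lay below all 6 of WT, by a narrow margin for replicate 4, while Dp16 overlapped both groups. As CPM, the means were 132 ± 7.72 (SD, n = 6), 120 ± 8.83 (n = 6) and 111 ± 10.02 (n = 5) in WT, Dp16 and Dp16_2xIFNRs.

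The Kcnj9 difference of Dp16_2xIFNRs against WT was -0.24 ± 0.06 (log2, SE; 95% interval -0.38 to -0.11) with an unadjusted p of 0.00154. Over all tested genes it missed the threshold (edgeR adjusted p = 0.0818, and 0.0228 to 0.277 in the 36 alternatives). It passed by DESeq2 (adjusted p = 0.0228) and in edgeR with no filter on low counts (adjusted p = 0.0474). Without Dp16_2xIFNRs replicate 3, the mouse lowest in Kcnj9, it was -0.18 (edgeR adjusted p = 0.277). In Dp16 against WT it was -0.14 ± 0.06 (edgeR adjusted p = 0.503; unadjusted p = 0.0409), and between the duplication groups -0.11 ± 0.06 (edgeR adjusted p = 0.554). The difference of Dp16_2xIFNRs against WT was -0.24 without WT replicate 4, the library with thalamus markers, and without the 3 libraries lowest in choroid plexus markers it was -0.22 (edgeR adjusted p = 0.197).

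Kcnj5 gave 8 to 26 counts per library, too few for a comparison of any precision. Its means in CPM were 0.537 ± 0.200 (SD, n = 6), 0.569 ± 0.147 (n = 6) and 0.593 ± 0.138 (n = 5) for WT, Dp16 and Dp16_2xIFNRs, and the groups overlapped throughout. The log2 fold changes were 0.08 with a 95% interval of -0.49 to 0.65 in Dp16 (edgeR adjusted p = 0.951) and 0.15 with -0.45 to 0.75 in Dp16_2xIFNRs (edgeR adjusted p = 0.827). Both intervals hold no change as well as a 1.5-fold rise.

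Among the members, edgeR thus called 1 of 4 in Dp16 against WT, where 0.537% of the 18983 genes tested were called, and the same gene, Kcnj6, in Dp16_2xIFNRs against WT, where 0.98% were. Kcnj6 lies in the segment, where 50.8% and 54.1% of the tested genes were called higher. The partner genes lie outside it, where 0.212% and 0.636% were called, and none of them was called. In Dp16_2xIFNRs against Dp16, edgeR called 0 of 4, beside 0.0158% of all genes, with 0 of 4 at an unadjusted p under 0.05. The DESeq2 test called 0 of 4 as well, where it called 0.0106% of the genes outside the segment. The genotype effect on the members was also compared between the sexes. The log2 fold change of Kcnj6 was 0.20 ± 0.19 (SE) higher in males in Dp16 and 0.15 ± 0.20 higher in Dp16_2xIFNRs, and neither interaction passed (edgeR adjusted p = 0.9999 and 0.998), nor did that of any of the 18983 genes.

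**Figure D2:**
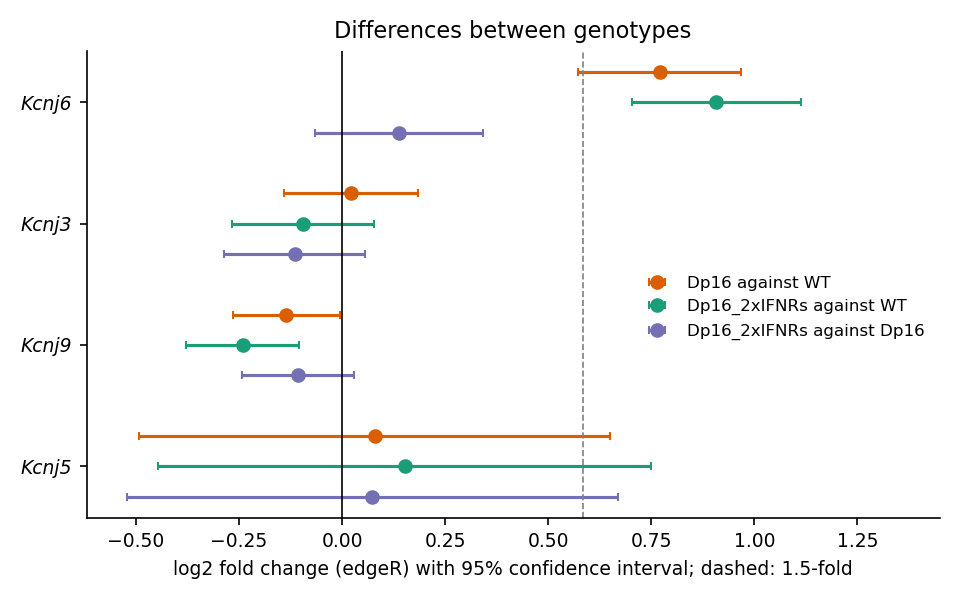
Log2 fold change (x axis) of each member in the 3 comparisons, with the 95% confidence interval of the edgeR fit as a line; the solid vertical line marks no difference and the dashed line 1.5-fold. The Kcnj6 intervals against WT start at 0.57 and 0.70, those of Kcnj9 against WT lie below 0, and those of Kcnj5 are the widest.

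The rise of Kcnj6 was set against the 1.5-fold ratio that 3 copies in place of 2 would give if the level followed the gene number. In Dp16, Kcnj6 stood 0.19 ± 0.09 (log2, SE) above that ratio, 1.14 times, which did not pass (edgeR adjusted p over the 122 tested genes of the segment = 0.422; unadjusted p = 0.0632; 0.236 to 0.904 over 27 alternatives). In Dp16_2xIFNRs it stood 0.32 ± 0.10 above it, 1.25 times, and passed (edgeR adjusted p = 0.0386; 0.00489 to 0.372 over 27 alternatives), 1 of 13 genes called among the 122. Its unadjusted p in that edgeR test was 0.00394. The ratio was also set for the interferon receptor genes, whose dosage is normal in Dp16_2xIFNRs. Against Dp16, 3 segment genes were called lower in that group. Calls fixed by that design can be among the 13 and lower the adjusted p. The adjustment without the receptor genes was not computed. The Kcnj6 call was lost without WT replicate 1, 3, 5 or 6 and without Dp16_2xIFNRs replicate 2, 3, 4 or 5, with adjusted p from 0.0724 to 0.127. It was also lost without the 3 libraries lowest in choroid plexus markers, where the excess was 0.27 (edgeR adjusted p = 0.193).

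The level of Kcnj6 moved with a property of the libraries. For genes of at least 1 CPM, log2 expression in each library was taken as the deviation from the gene's mean over the 17 libraries. The slope of these deviations on log2 gene length was computed in each library. It is high where long transcripts are better represented than in the average library. Over the 17 mice, as deviations from the genotype mean, Kcnj6 and this slope had a Pearson r of 0.80 (permutation p = 0.00065, adjusted over 12 relations 0.0078) and a Spearman rho of 0.79 (permutation p = 0.00053, adjusted 0.00636). Without the 2 libraries whose slopes deviated most from their genotype mean, Dp16_2xIFNRs replicate 1 and Dp16 replicate 5, r was 0.71. The same slope had an r of -0.08 with Kcnj3, 0.04 with Kcnj9 and 0.03 with Kcnj5 (adjusted permutation p = 0.914 for each).

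The mean slope was -0.0178 in WT, 0.0024 in Dp16 and 0.0184 in Dp16_2xIFNRs, with overlapping groups (exact permutation p = 0.0823 for Dp16_2xIFNRs against WT, adjusted over 3 comparisons 0.247). With the slope as a covariate, the Kcnj6 log2 fold changes were 0.68 in Dp16 (edgeR adjusted p = 4.67e-06) and 0.73 in Dp16_2xIFNRs (edgeR adjusted p = 1.4e-05). The excess over the 1.5-fold ratio was then 0.09 and 0.15 and passed in neither group (edgeR adjusted p = 0.456 and 0.372). Dp16_2xIFNRs replicate 1, the mouse lowest in Kcnj6 among the duplication mice, had the lowest slope of its group, at -0.0313.

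Within the segment, Kcnj6 was among the genes with the largest rise. Of 101 segment genes averaging 1 CPM or more, Kcnj6 ranked 5th by log2 fold change in Dp16, after Ripk4, Ncam2, Mx2 and Rbm11, and 3rd in Dp16_2xIFNRs, after C130023A14Rik and Mx2. The quartiles of these genes lay at 0.45 and 0.65 in Dp16 and at 0.44 and 0.67 in Dp16_2xIFNRs. Mx2 is an interferon-induced gene and Ncam2 a neural cell adhesion molecule. This rank is a position among measured values from the fit without the length slope, and it carries no test of its own.

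Most of the genes next to Kcnj6 rose as well, and each tested neighbour had a smaller fold change than Kcnj6 in both groups. This order was not tested and comes from the fit without the length slope. With that slope in the fit, Kcnj6 had 0.68 in Dp16 and 0.73 in Dp16_2xIFNRs, and the neighbours were not compared there. Of 11 neighbours, 10 were tested and 8 were called higher in each duplication group against WT, where 50.8% and 54.1% of the tested segment genes were called higher. Dyrk1a, a kinase gene with a known role in brain growth, rose by 0.59 ± 0.04 (log2, SE) in Dp16 (edgeR adjusted p = 1.18e-07) and by 0.53 ± 0.04 in Dp16_2xIFNRs (edgeR adjusted p = 7.28e-07). Ttc3, which encodes a ubiquitin ligase and was the most abundant neighbour, rose by 0.65 ± 0.07 and 0.54 ± 0.07. Hlcs, Pigp, Vps26c, Ets2, Psmg1 and Brwd1 were the others called, with 0.44 to 0.65 in Dp16 and 0.44 to 0.73 in Dp16_2xIFNRs.

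The 2 tested neighbours that did not pass were Erg, an endothelial transcription factor gene, and Ripply3, which stood at 0.377 CPM in WT. Erg had log2 fold changes of 0.26 ± 0.12 in Dp16 and 0.18 ± 0.12 in Dp16_2xIFNRs. Erg was also 1 of the genes called below the 1.5-fold ratio in Dp16_2xIFNRs, by 0.40 ± 0.12 (edgeR adjusted p over the segment = 0.0386). The limit that the interferon receptor genes set on the Kcnj6 call holds for Erg too. Dyrk1a departed from that ratio by 0.00 in Dp16 and -0.05 in Dp16_2xIFNRs, and neither passed.

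The segment holds 3 other potassium channel genes. Kcnj15, which encodes another inward rectifier and is the neighbour that was not tested, had 0 to 7 counts per library, and Kcne1, which encodes an accessory subunit of voltage-gated channels, had 0 to 5. Kcne2, an accessory subunit gene known from the choroid plexus, ranged from 0.128 to 38.3 CPM in WT, from 0.540 to 56.2 CPM in Dp16 and from 0.609 to 50.7 CPM in Dp16_2xIFNRs. Its lowest value in each group was in the library lowest in choroid plexus markers, and its log2 fold changes of 0.30 ± 0.75 and 0.50 ± 0.78 did not pass. Kcnj6 was thus the 1 potassium channel gene of the segment that was called.

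**Figure D3:**
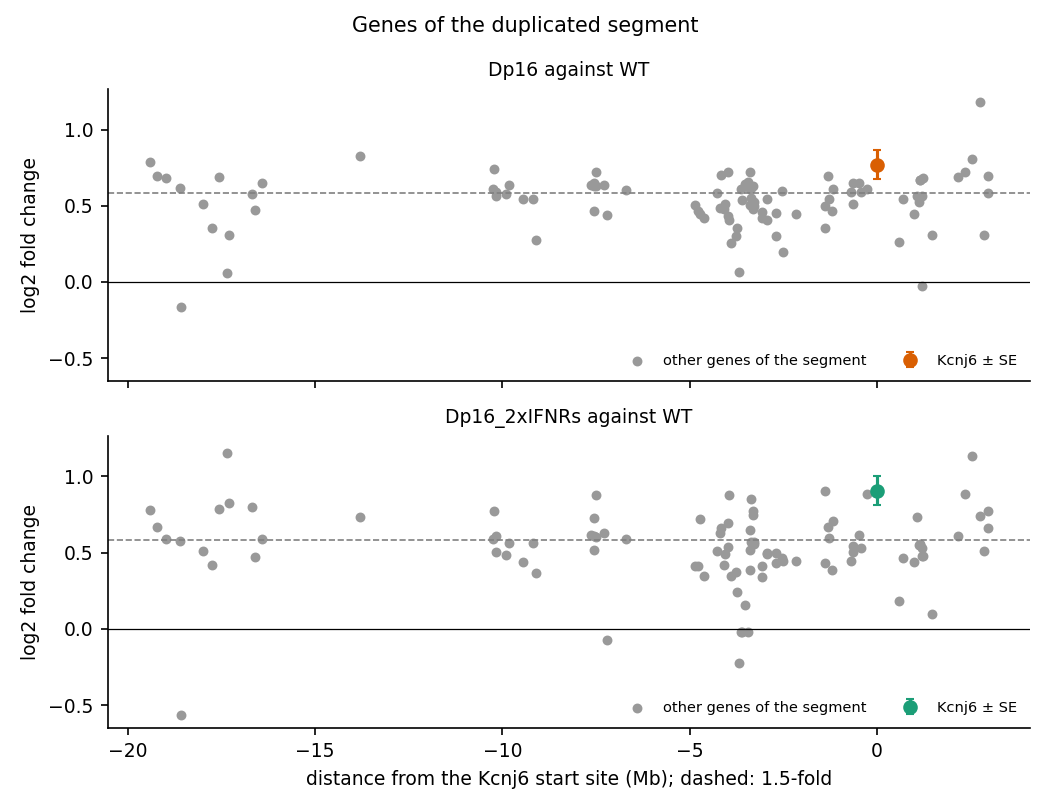
Log2 fold change against WT (y axis) of the segment genes averaging 1 CPM or more, by distance of their start site from that of Kcnj6 (x axis, Mb), for Dp16 (top) and Dp16_2xIFNRs (bottom); the dashed line marks 1.5-fold and the bar on Kcnj6 its SE. Kcnj6 lies above the dashed line in both panels, at 0.77 and 0.91.

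The make-up of the subunit transcripts differed between WT and both duplication groups. Kcnj6 made up 6.42% ± 0.821 (SD, n = 6) of the summed RPKM of the 4 members in WT, 10.8% ± 1.15 (n = 6) in Dp16 and 12.6% ± 1.86 (n = 5) in Dp16_2xIFNRs. The share of Kcnj9 was 47.4% ± 1.69, 42.7% ± 1.99 and 41.9% ± 2.22 in the same order, that of Kcnj3 was 46.01% ± 2.28, 46.3% ± 2.00 and 45.3% ± 1.03, and that of Kcnj5 was at most 0.251% in any library. The summed RPKM was 71.6 ± 4.95, 71.4 ± 4.76 and 68.7 ± 2.94. The shares depend on the gene length behind RPKM: with the longest annotated transcript as the length, the Kcnj6 shares were 10.97%, 17.9% and 20.5%.

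Ratios of 2 members within a library do not depend on how libraries are scaled. They and the shares were not adjusted for the length slope of the libraries. That slope had an r of 0.80 with Kcnj6, -0.08 with Kcnj3 and 0.04 with Kcnj9. Its part in the ratios was not tested. The log2 ratio of Kcnj6 to Kcnj3 had its lowest, median and highest value at -3.17, -2.91 and -2.49 in WT and at -2.38, -2.03 and -1.93 in Dp16. In the Dp16_2xIFNRs mice it was -2.24, -1.75, -1.67, -1.88 and -1.74. Both duplication groups lay above WT without overlap, by 0.75 in Dp16 and 0.99 in Dp16_2xIFNRs (2-sided exact permutation p = 0.00216 for each, the smallest these numbers of mice allow; 0.00541 adjusted over 15 tests of ratios, shares and sums).

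The log2 ratio of Kcnj6 to Kcnj9 was higher by 0.91 in Dp16 and 1.15 in Dp16_2xIFNRs, again without overlap (exact permutation p = 0.00216, adjusted 0.00541, for each). The ratio of Kcnj3 to Kcnj9, both outside the segment, was higher by 0.16 in Dp16 (exact permutation p = 0.0476, adjusted 0.0893) and by 0.16 in Dp16_2xIFNRs (exact permutation p = 0.0411, adjusted 0.0881). These groups overlapped and the differences did not pass after adjustment. The duplication groups did not differ past the threshold from each other in any of the 3 ratios, although without Dp16_2xIFNRs replicate 1 the ratio of Kcnj6 to Kcnj3 was 0.33 higher in Dp16_2xIFNRs (exact permutation, adjusted p = 0.0179; 0.24 and adjusted p = 0.133 with it).

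**Figure D4:**
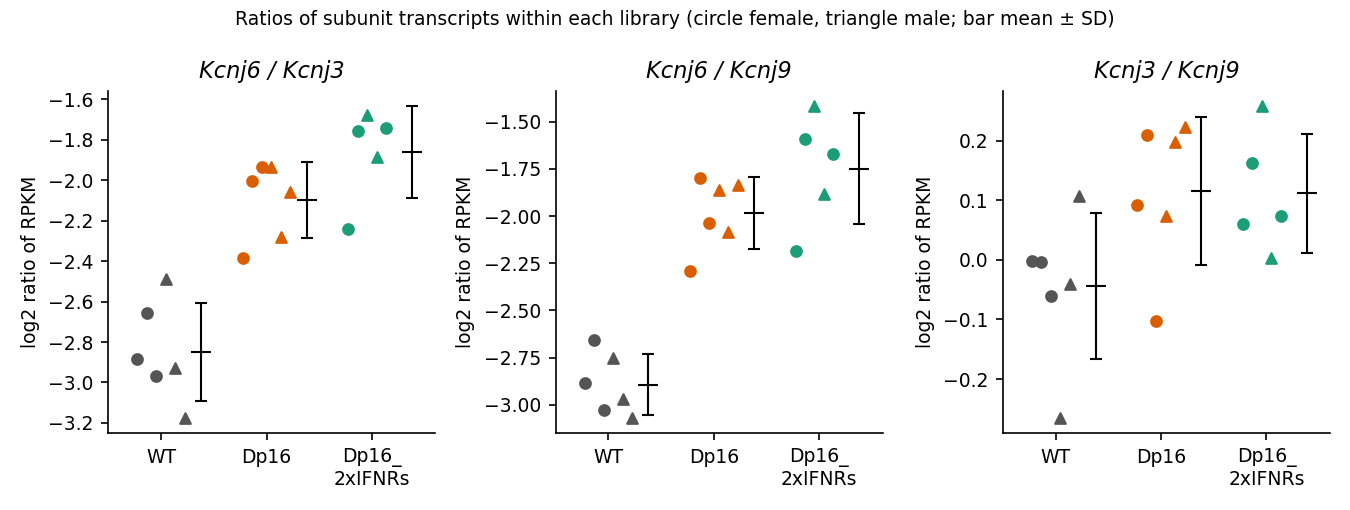
Log2 ratio of RPKM within each library (y axis) for Kcnj6 to Kcnj3, Kcnj6 to Kcnj9 and Kcnj3 to Kcnj9 by genotype; circles are females, triangles males, and the bar beside each group is the mean with its SD. The ratios with Kcnj6 separate WT from both duplication groups, and the ratio of Kcnj3 to Kcnj9 does not.

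Between mice of 1 genotype, the 2 abundant subunits tended to vary together. As deviations from the genotype mean of log2 CPM over 17 mice, Kcnj3 and Kcnj9 had a Pearson r of 0.60 (permutation p = 0.0052, adjusted over 6 pairs 0.0312) and a Spearman rho of 0.67 (permutation p = 0.0038, adjusted 0.0228). Without the 2 mice farthest from the median of Kcnj3, WT replicate 6 and Dp16 replicate 3, r was 0.52. With deviations from the mean of each genotype and sex, r was 0.61, and the permutation within these small groups did not pass (adjusted p = 0.53). The choroid plexus level of the libraries had an r of -0.53 with Kcnj3 and -0.38 with Kcnj9 (adjusted permutation p = 0.371 and 0.591), and its part in the relation was not tested. Kcnj6 had an r of 0.06 with Kcnj3 and -0.11 with Kcnj9 (adjusted permutation p = 0.934 for each).

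Genes whose deviations were among the most like those of each member were named from the 15616 genes averaging 1 CPM or more, by Pearson's r over the 17 libraries. For Kcnj6 these were Scn8a, a sodium channel gene (r = 0.86), Ankrd17, Ank3, which encodes a scaffold of the axon initial segment, Polr3f and Pde4dip (r = 0.83). For Kcnj3 they were Plppr5 (r = 0.93), Adgrb3, Pafah1b2 and Nr2c2. For Kcnj9 they were Brinp3 (r = 0.87), Impact, Prkacb and Cd200. The points share the libraries and their depth and length slope, so these values are descriptions. For Kcnj5, with its few counts, no such genes are given.

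The other genes of the pathway showed few differences that passed. In 6 lists outside the segment (receptors, G protein subunits, regulators of G protein signalling, channel partners, other inward rectifiers and other channels of excitability), 113 of 116 genes were tested. For Dp16 and WT, edgeR called 0 of the 113, beside 0.212% of all tested genes outside the segment. The DESeq2 test called 0 as well, beside 0.748% of those genes. At an unadjusted p under 0.05, 16 of the 113 were higher and 6 lower, where 5.15% and 3.99% of the genes outside the segment were. The share higher was thus larger than outside the segment. Whether the lists differ as a set from those genes was not tested. The median log2 fold change of the 113 was 0.01, against -0.01 over all tested genes, and 59 were positive.

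For Dp16_2xIFNRs and WT, 2 of the 113 were called by edgeR, both lower, where 0.636% of the genes outside the segment were called and 0.345% were called lower. There were 11 of the 113 higher and 19 lower at an unadjusted p under 0.05, where 8.01% and 8.65% of the genes outside the segment were. The share lower was thus larger than outside the segment, which was not tested as a set. The median of the 113 was -0.05, against 0.00 over all tested genes, and 67 were negative. Kcnk2, a background potassium channel gene, had a mean of 47.6 ± 4.16 CPM (SD, n = 6) in WT and 36.8 ± 3.88 CPM (n = 5) in Dp16_2xIFNRs, with no overlap, and fell by 0.38 ± 0.08 (log2, SE; edgeR adjusted p = 0.0158). Gng3, a G protein gamma subunit gene of neurons, had 150.0 ± 11.3 CPM and 123 ± 13.3 CPM and fell by 0.29 ± 0.07 (edgeR adjusted p = 0.0451), with groups that overlapped. The count rested on the setting, as did that over the whole table. It was 13 by DESeq2, which called 2.95% of the genes outside the segment. It was 0 without WT replicate 3 or Dp16_2xIFNRs replicate 2 or 3, 1 without WT replicate 1, Dp16 replicate 1, 4, 5 or 6 or Dp16_2xIFNRs replicate 4, and 7, 9 and 12 without WT replicate 2, WT replicate 4 and Dp16_2xIFNRs replicate 1. The share called outside the segment was 0.236% to 0.393% where the count was 0, 0.357% to 0.622% where it was 1, and 0.974%, 1.94% and 2.35% where it was 7, 9 and 12. Adding the length slope to the fit gave a count of 0 and a share of 0.244%. In Dp16_2xIFNRs against Dp16, edgeR called 0 of 113, beside 0.0% of the genes outside the segment, and DESeq2 called 0, beside 0.0106%. At an unadjusted p under 0.05, 3 of the 113 were higher and 11 lower, where 6.99% and 3.44% of the genes outside the segment were. The share higher was thus smaller and the share lower larger than outside the segment, again not tested as a set. The median of the 113 was -0.08, against -0.01 over all tested genes, and 83 were negative.

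Of 31 receptor genes, 30 were tested and edgeR called 0 in either comparison with WT. The DESeq2 test called 0 in Dp16, and 1 higher (Sstr4) and 1 lower (Grm2) in Dp16_2xIFNRs. At an unadjusted p under 0.05, 3 were higher and 2 lower in Dp16 and 3 higher and 4 lower in Dp16_2xIFNRs, to be read against the shares of all genes outside the segment given above, as for the other lists. Gabbr1 and Gabbr2, the subunits of the GABA-B receptor, had log2 differences of 0.00 and 0.01 in Dp16 and of -0.03 and -0.06 in Dp16_2xIFNRs. Adora1, the adenosine A1 receptor gene, had 0.10 ± 0.07 (SE) and 0.03 ± 0.07. Cnr1, the cannabinoid receptor gene, had 0.23 ± 0.09 and 0.28 ± 0.09 (edgeR adjusted p = 0.422 and 0.153).

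Of 20 G protein subunit genes, 19 were tested, and apart from Gng3 in Dp16_2xIFNRs (and, by DESeq2, Gng4 as well) none was called in either comparison with WT, with 3 higher and 0 lower at an unadjusted p under 0.05 in Dp16 and 0 and 2 in Dp16_2xIFNRs. Gnao1, the most abundant of them and the gene of the Go alpha subunit, had log2 differences of 0.12 ± 0.05 and 0.08 ± 0.05, and Gnai1 had 0.16 ± 0.05 and 0.07 ± 0.06. All 19 regulators of G protein signalling were tested and edgeR called 0 (DESeq2 called Rgs6 lower in Dp16_2xIFNRs), with 3 higher and 0 lower at an unadjusted p under 0.05 in Dp16 and 1 and 1 in Dp16_2xIFNRs. Rgs7bp, which anchors such a regulator to the membrane, had 0.00 ± 0.06 and -0.05 ± 0.07. Among 14 channel partners, all tested, edgeR called 0 (DESeq2 called Kctd16 higher in Dp16_2xIFNRs), with 3 higher and 0 lower at an unadjusted p under 0.05 in Dp16 and 3 and 2 in Dp16_2xIFNRs. Ncam1, a cell adhesion gene, had 0.05 ± 0.04 and 0.07 ± 0.05.

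Of 10 other inward rectifier genes, 9 were tested and edgeR called 0, while DESeq2 called Kcnj11 and Kcnj16 lower in Dp16_2xIFNRs. Their median was the lowest of the 6 lists, -0.11 in Dp16 and -0.20 in Dp16_2xIFNRs. At an unadjusted p under 0.05, 1 was higher and 0 were lower in Dp16, and 1 was higher and 5 were lower in Dp16_2xIFNRs, where 8.01% and 8.65% of the genes outside the segment were higher and lower at that p. Kcnj10, the main inward rectifier of astrocytes, had -0.15 ± 0.08 and -0.20 ± 0.08 (edgeR adjusted p = 0.562 and 0.226). Kcnj16, which pairs with it, had -0.11 ± 0.10 and -0.44 ± 0.11 (edgeR adjusted p = 0.766 and 0.0532). Kcnj4 had -0.09 ± 0.09 and -0.30 ± 0.09, and Kcnj11, the pore gene of the ATP-sensitive channel, -0.06 ± 0.06 and -0.22 ± 0.06 (edgeR adjusted p = 0.783 and 0.0818). The summed level of 6 astrocyte markers overlapped between the groups, at 1485 to 1773 CPM in WT, 1588 to 1827 CPM in Dp16 and 1504 to 1781 CPM in Dp16_2xIFNRs. Of the 6, edgeR called Fgfr3 lower in both groups, by 0.26 ± 0.05 (adjusted p = 0.0329) and 0.35 ± 0.06 (adjusted p = 0.00251). Gja1 was also lower in Dp16_2xIFNRs, and Gfap higher in both groups, at an unadjusted p under 0.05. The part of astrocytes in the Kcnj10 and Kcnj16 values was not tested.

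All 22 other channels of excitability were tested, and Kcnk2 in Dp16_2xIFNRs was the 1 call of edgeR against WT. The DESeq2 test called 0 in Dp16 and 1 higher (Kcnq3) and 4 lower (Hcn2, Kcnk1, Kcnk2 and Kcnk3) in Dp16_2xIFNRs. At an unadjusted p under 0.05, 3 were higher and 4 lower in Dp16, and 3 higher and 5 lower in Dp16_2xIFNRs, where 3.99% and 8.65% of the genes outside the segment were lower. Kcnq3, a voltage-gated potassium channel gene, had 0.22 ± 0.06 in Dp16 and 0.26 ± 0.07 in Dp16_2xIFNRs, and neither passed in edgeR (edgeR adjusted p = 0.183 and 0.0677). Kcnma1, the gene of the large-conductance calcium-activated channel, had 0.10 ± 0.06 and 0.08 ± 0.06. Kcna2, which encodes a voltage-gated channel of axons, had 0.00 ± 0.05 and -0.10 ± 0.05.

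**Figure D5:**
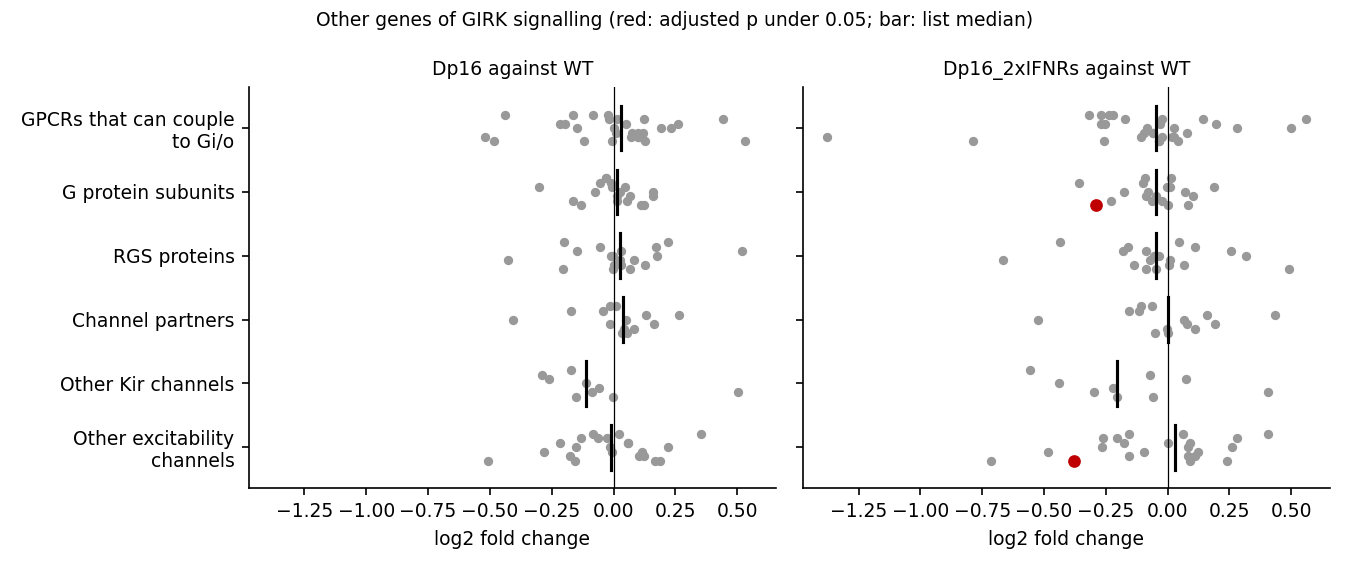
Log2 fold change against WT (x axis) of the tested genes of the 6 pathway lists (rows), for Dp16 (left) and Dp16_2xIFNRs (right); each point is a gene, red points passed at an edgeR adjusted p under 0.05, and the black bar is the list median. The red points are Gng3 and Kcnk2 in Dp16_2xIFNRs.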

How the data were processed

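Libraries of 17 mouse hippocampi came from a strand-specific kit and gave read pairs of 150 bases, per the labels' protocols. HISAT2 2.1.0, HTSeq 0.6.1, SAMtools 1.5, FastQC 0.11.5 and bcl2fastq are named with the build GRCm38, per the submitters' processing notes. The authors deposited raw counts per gene and RPKM made from them, and the deposited RPKM implied 1 length per gene over all libraries. The identifier differs for every library, so each was taken as a separate mouse. Its second part, whose meaning is not given in the sources used here, is shared by 5 pairs of libraries of different genotypes, each pair of 1 sex and 4 of equal age.

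Counts were fitted in edgeR 4.0.16 (R 4.3.3) by a quasi-likelihood model of genotype and sex over all 17 libraries, after filterByExpr (minimum count 10, 18983 genes) and TMM scaling. A gene was called at a Benjamini-Hochberg adjusted p under 0.05 over all genes tested. CPM are TMM-scaled, with a prior count of 2 before log2. Departure from 1.5-fold used the same offset for every segment gene, the interferon receptor genes included, adjusted over the 122 tested segment genes. The segment was every gene on chromosome 16 from 75540514 to 97962622, with positions from GENCODE release 21 where the tables name release 24. Ratios within a library were compared by exact permutation over mice, and correlations by 100000 permutations within genotype. Alternatives used DESeq2 1.42.0 and limma 3.58.1 (log2 of RPKM plus 0.1 or 1), other filters, covariates and scalings, and each library left out in turn.

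The members and lists were chosen with earlier results of these data known. The members, the neighbours of Kcnj6 and called pathway genes were named, then the most abundant of each list up to 4, and the 5 genes most like a member; some genes under these rules are not reported here. Others named from the lists (Kcnj6 aside) were chosen after their values were seen. Protein sequences were not used here.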

Additional observations from a re-analysis of the deposited data

Results flagged for a closer look

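Kcnj6 in Dp16_2xIFNRs replicate 1 stood at 43.0 CPM, where the other 4 mice of that group stood at 55.8 to 60.6 CPM. The gap to the nearest mouse was 0.726 of the whole range of the group, above Dixon's critical value of 0.710 for 5 samples. It was the 1 such value among 27 groups of values looked at, and chance gives about 1 in 20. This library also had the lowest length slope of its group, at -0.0313, and the part of that slope in the Kcnj6 value was not tested in this mouse. Without it, Kcnj6 had a log2 fold change of 0.98 against WT (0.91 with it), and its excess over 1.5-fold was 0.40 (0.32 with it).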

How the results depend on the processing

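The Kcnj6 rise against WT kept its direction and its call in all 36 alternatives in both duplication groups, and Kcnj3 and Kcnj5 passed in none. Kcnj9 in Dp16_2xIFNRs against WT kept its direction and passed by DESeq2 (-0.24), with no filter (-0.25) and at a threshold of 0.1 (-0.24). Kcnj5 has no value with a filter of 1 CPM in 5 libraries, which removes it. The alternatives without the 3 libraries lowest in choroid plexus markers, with the length slope, with the longest transcript and with the identifier's second part as a random block were chosen after seeing the data. With that random block (limma-voom, consensus correlation -0.0147) Kcnj6 had 0.77 and 0.91 and 2 pathway genes were called. The cause of the changes below was not tested.

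The log2 fold change of Kcnj3 in Dp16 turned to -0.016 with the thalamus level as a covariate and was -0.029 to 0.088 with a library left out. That of Kcnj5 in Dp16 was -0.018 without the 3 libraries and -0.053 to 0.27 with 1 left out, and between the duplication groups -0.043 to 0.18. The called pathway genes in Dp16_2xIFNRs against WT were 13 by DESeq2 and with no filter, 4 with no covariate and on RPKM plus 0.1 or 1, 1 with the identifier series as a covariate and without the 3 libraries, 7 with the choroid plexus and 5 with the thalamus level, 0 with only 2 groups or the length slope, 10 at a threshold of 0.1, and 0 to 12 with a library left out. The Kcnj6 excess over 1.5-fold in Dp16_2xIFNRs was no longer called with the thalamus level (0.34), the length slope (0.15) or without the 3 libraries (0.27), and was 0.28 to 0.40 with a library left out.

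Within 1 sex, 3 mice against 3 or 2 cannot pass. The differences from WT in females and males were 4.13 and 4.73 points in the Kcnj6 share for Dp16 and 5.65 and 6.90 for Dp16_2xIFNRs. They were 0.73 and 0.77, and 0.92 and 1.08, in the ratio to Kcnj3, and 0.82 and 1.01, and 1.04 and 1.28, in that to Kcnj9.

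Replicate numbers were not taken as pairs of mice. Deviations of same-numbered libraries had a mean correlation of 0.0772 (-0.216 to 0.471, 16 pairs), against -0.0141 for others (-0.420 to 0.515, 80 pairs). That difference was not tested. With the replicate block, the Kcnj6 fold changes were 0.77 and 0.92 and the called pathway genes 2. In the paired permutation of ratios, which cannot pass at this size, the Kcnj6 share differed by 4.43 and 5.97 points, the ratio to Kcnj3 by 0.75 and 0.92 and that to Kcnj9 by 0.91 and 1.11, and Kcnj3 to Kcnj9 between the duplication groups was 0.017.

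With CPM in place of RPKM, the difference in the summed level of the members in Dp16 against WT turned to 11.96 CPM. In RPKM it turned to 1.92 by medians, 0.395 in males, 2.36 with the longest transcript and 1.05 without the 3 libraries. It was -1.57 to 1.53 RPKM with a library left out, and in Dp16_2xIFNRs it turned to 0.364 RPKM with the longest transcript. The log2 ratio of Kcnj3 to Kcnj9 in Dp16_2xIFNRs against WT passed without the 3 libraries (0.20). With a library left out it was 0.11 to 0.19 there and passed without WT replicate 6. In Dp16 against WT it was 0.12 to 0.20 and passed without Dp16 replicate 3. Between the duplication groups it was 0.032 in females, 0.027 without the 3 libraries, and -0.048 to 0.023 with a library left out. The Kcnj6 share there was 1.25 to 2.46 points and the ratio to Kcnj3 0.18 to 0.33, both highest without Dp16_2xIFNRs replicate 1. Correlations that turned were Kcnj6 with Kcnj3 (-0.0051 by genotype and sex), Kcnj6 with Kcnj5 (0.25 without 2 mice) and Kcnj3 with Kcnj5 (-0.0033 by genotype and sex, -0.22 without 2 mice).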
